A study of Mus musculus with 16 samples.

Results

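The 8 genes described here, of 56748 listed for splenic memory CD4+ T cells, are Plcb4, Taf1d, Ifitm10, Lilrb4b, Slc6a9, Gm10358, Gm6311 and Gm49378. They were picked by name because their levels differed most steadily between cells lacking HP1α and wild-type (WT) cells of the same line. By the p of that comparison over 14881 genes they held ranks 1, 2, 4, 5, 6, 7, 9 and 12. The genes between them were 1700030C10Rik (rank 3), H2bc9 (rank 8), Gm10925 (rank 10) and Xlr4c (rank 11), and the first gene below the last member was Gm27029 (rank 13), with log2 fold changes of 2.29, -1.33, -0.70, -0.40 and -2.37. The difference between HP1α KO and WT cells therefore defines the 8 genes and is given as a description without a test. The ranking did not use the second line of mice, in which HP1γ was deleted. It also did not use the sequence of the genes or the level of related genes. Why the genes between the members were passed over is not given. Earlier results of these data were known when the members were named, so their choice may not be independent of the HP1γ line.

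HP1 proteins bind histone H3 methylated on lysine 9 and take part in heterochromatin formation and gene silencing. HP1α is encoded by Cbx5 and HP1γ by Cbx3. In T helper cells this pathway is known for silencing genes of other lineages. Here the transcriptomes of memory cells of mutants and littermates were compared.

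RNA-Seq covered 4 groups of 4 samples of spleen cells, sorted as memory cells by the surface markers CD4+CD25low/-CD62L-CD44high. For the HP1α line, a floxed Hp1a allele was excised with CMV-cre, which is active in all tissues, and HP1α KO (Hp1a-/-) mice were compared with Hp1a+/+ littermates (HP1α WT). In the HP1γ line all mice were homozygous for the floxed Hp1g allele, and HP1γ KO mice also carried Cd4-cre, so that an effect of Cre and one of the deletion cannot be told apart. Mice were sex-matched littermates of 6 to 12 weeks on a mixed 129/Sv and C57BL/6 background, and the study states that males were used for its sequencing. The labels do not say that the 4 samples of a group are 4 animals, so that the spread given here may be in part technical.

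Libraries held between 26694045 and 40199637 estimated counts. Defining CD4 T cell markers (11 of 11 listed genes detected) summed to between 8898 and 10230 TPM (transcript counts scaled for length and depth) in all samples. Cbx5 RNA was 27.3 ± 2.88 CPM in HP1α KO and 40.6 ± 9.52 CPM in HP1α WT (SD, n = 4; CPM are normalised read counts scaled to library size), and Cbx3 RNA was 47.0 ± 1.77 and 84.4 ± 8.57 CPM in HP1γ KO and WT. RNA of both targeted genes was thus still read in the KO groups. None of the 8 genes lies on chromosome 15 or 6, which carry Cbx5 and Cbx3.

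The 8 genes were of unlike kinds. Plcb4, Taf1d, Ifitm10, Lilrb4b and Slc6a9 are protein-coding genes with reads in every sample. Gm10358 is a single-exon retrogene of Gapdh (named Gapdhrt2 in a later annotation), Gm6311 is a processed pseudogene of Rps2, and Gm49378 is a read-through gene that joins Tm9sf1 to its neighbour Ipo4. Per length, and over the 16 samples, the mean level fell from Taf1d (138 TPM) through Ifitm10 (41.3 TPM), Lilrb4b (26.4 TPM) and Plcb4 (10.9 TPM) to Gm6311 (0.687 TPM), Gm49378 (0.588 TPM), Slc6a9 (0.508 TPM) and Gm10358 (0.409 TPM). The ranges of the last 4 genes overlapped one another.

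How much of each gene can be told from other genes by a read is shown by its sequence. The transcripts of each gene (protein-coding ones where there are any) were divided into windows of 150 bases, and windows also present in a transcript of another gene were counted. All windows of Plcb4 and Slc6a9 were found in no other gene (100%), as were 99.8% for Taf1d, 99.0% for Ifitm10 and 95% for Lilrb4b. The share was 52.0% for Gm6311, 16.7% for Gm10358 and 4.96% for Gm49378. Estimated counts of Plcb4 and Slc6a9 were whole numbers in 16 of 16 samples (within 0.001), whereas none of the values above 0 of the other 6 genes was whole. Salmon divides a read among the transcripts it matches.

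**Figure D1:**
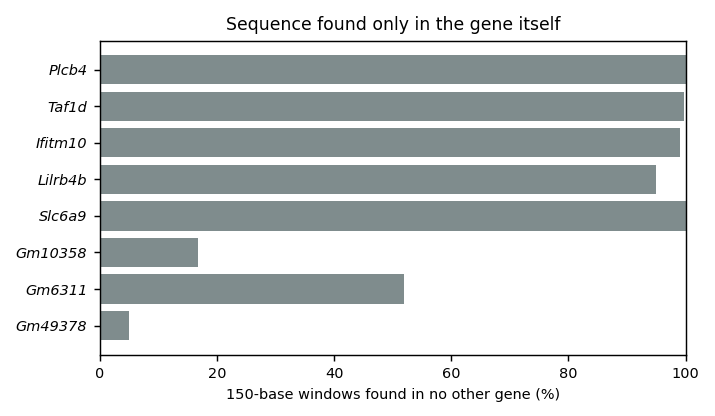
Bars give, for each of the 8 genes (vertical axis), the share in percent of its 150-base transcript windows that occur in no other gene (horizontal axis, from 0). Plcb4 and Slc6a9 reach 100%, while Gm6311, Gm10358 and Gm49378 stay at 52.0%, 16.7% and 4.96%.

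Gm10358 (ENSMUSG00000110469) lies on chromosome 8 at 76131968 to 76133217 (GRCm39, minus strand). Its transcript of 1250 bases aligned with Gapdh over 1247 bases with 9 mismatches (99.3% identity), and the longest run without a mismatch was 437 bases. At least 150 bases at 98% identity or more were shared with 44 other genes. The 90 coding bases with the most mismatches are printed because only reads over such positions tell the retrogene from Gapdh, with the 3 mismatches in capitals and the rest in lower case (Gm10358 chr8:76133035-76133124, Gapdh chr6:125140310-125140399, both minus strand):
Gm10358: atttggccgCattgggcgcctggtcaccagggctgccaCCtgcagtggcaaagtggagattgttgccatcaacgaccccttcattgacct
Gapdh: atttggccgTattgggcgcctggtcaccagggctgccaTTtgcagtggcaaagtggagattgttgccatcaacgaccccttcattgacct

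Gm6311 (ENSMUSG00000061833) lies on chromosome 13 at 76102255 to 76103132 (plus strand) and aligned with Rps2, which encodes a protein of the small ribosomal subunit, over its 878 bases with 9 mismatches (99.0% identity). It shared 150 bases or more at this identity limit with 12 genes. The stretch with the most differences in the Rps2 coding sequence holds 4 mismatches (Gm6311 chr13:76102290-76102379, Rps2 chr17:24939285-24939374, both plus strand, mismatches in capitals):
Gm6311: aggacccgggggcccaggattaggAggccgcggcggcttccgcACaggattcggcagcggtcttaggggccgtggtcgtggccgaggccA
Rps2: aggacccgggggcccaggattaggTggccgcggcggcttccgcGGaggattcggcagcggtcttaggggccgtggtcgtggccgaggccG

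Lilrb4b (ENSMUSG00000112023) and Lilrb4a are neighbours on chromosome 10, 4.23 kb apart, and both encode immunoglobulin-like receptors of leukocytes. Their transcripts aligned over 1460 bases with 48 mismatches (96.7% identity), so that the pair is easier to tell apart than the retrogene and its parent. The read-through gene Gm49339 spans both (51356708 to 51372709). The stretch printed here holds 11 mismatches, in capitals (Lilrb4b chr10:51357377-51357466, Lilrb4a chr10:51367671-51367760, both plus strand):
Lilrb4b: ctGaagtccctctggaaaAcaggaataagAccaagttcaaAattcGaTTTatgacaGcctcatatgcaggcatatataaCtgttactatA
Lilrb4a: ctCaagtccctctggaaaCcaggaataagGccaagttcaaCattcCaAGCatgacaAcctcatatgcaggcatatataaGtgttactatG

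Gm49378 (ENSMUSG00000115232) extends from 55866533 to 55875352 on the minus strand of chromosome 14. Of the 3275 bases in the 23 exons of its transcript, 686 lie inside Tm9sf1 and 2583 inside Ipo4, and the 6 bases left between the genes (55873415 to 55873420) belong to neither. The read-through gene can thus be told from its neighbours only by reads that span the join. Of its 3126 windows of 150 bases, 155 were found in no other gene.

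Levels of the 8 genes in the HP1α line are taken first, as the values that chose them. All 8 differed between HP1α KO and WT without overlap of the samples on the CPM scale, 6 being lower and 2 higher in KO. Of all 14881 genes tested, 1.4% were lower and 1.71% higher in this way, 3.11% in all. On the TPM scale 6 of the 8 did not overlap, beside 2.74% of all genes. Since the 8 genes were picked for this difference, nothing is read from their count. Of the 14881 genes, 0 passed an adjusted p under 0.05 in this comparison with edgeR after the filter on low counts, and 635 (4.27%) had an unadjusted p under 0.05. DESeq2 called 2 genes, edgeR without the filter 1, and limma on either TPM scale 1, and in each of these settings the calls included the member Gm10358. Since Gm10358 was chosen on this same comparison, these calls are no test of it and are given as a description.

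Plcb4 encodes a phospholipase C that acts downstream of Gq-coupled receptors. It was 19.7, 20.01, 21.3 and 15.9 CPM in HP1α WT and 13.3, 12.9, 12.5 and 13.1 CPM in HP1α KO. The KO samples were close to one another, and the nearest WT sample was replicate 4. The log2 fold change was -0.57 (SE 0.0943). On the TPM scale, which divides by the estimated transcript length, KO ranged from 7.24 to 8.55 and WT from 7.18 to 11.5, so that the groups overlapped through the same WT sample.

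Taf1d encodes a subunit of the selectivity factor that recruits RNA polymerase I to ribosomal RNA genes, and hosts small nucleolar RNAs. It read 118, 136, 115 and 119 CPM in HP1α WT and 104, 97.8, 95.3 and 93.6 CPM in HP1α KO. This was the smallest of the 8 differences, with a log2 fold change of -0.32 (SE 0.0638), in the member with the most counts (3042 to 5353 per sample of this line).

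Ifitm10 belongs to the family of interferon-induced transmembrane proteins. HP1α WT samples held 27.4, 27.2, 27.3 and 23.6 CPM and HP1α KO samples 31.7, 35.8, 32.6 and 37.9 CPM. Its log2 fold change was 0.38 (SE 0.0801), and the groups were also apart in TPM (33.8 to 40.1 in WT, 43.5 to 55.7 in KO).

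Lilrb4b stood at 31.9, 31.1, 38.2 and 33.5 CPM in HP1α WT and at 17.9, 25.02, 25.7 and 24.0 CPM in HP1α KO. Replicate 1 of the KO group was the lowest. The log2 fold change was -0.54 (SE 0.119), and in TPM the groups overlapped (10.6 to 19.2 in KO, 18.8 to 24.5 in WT).

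Slc6a9 encodes the glycine transporter GlyT1, which is known from glia and from red cell precursors. Its counts were 11, 12, 12 and 11 in HP1α WT and 5, 4, 3 and 6 in HP1α KO, or 0.305 to 0.440 CPM and 0.0883 to 0.155 CPM. The log2 fold change of -1.49 (SE 0.335) therefore rests on a few reads per library.

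Gm10358 was estimated at 28.2, 29.2, 20.2 and 20.2 counts in HP1α WT and was listed at 0 in all 4 HP1α KO samples. Against a floor of 3 counts per library, which is 0.0845 CPM on average, it was at least 8.84-fold lower in KO. Floors cover counting error only, and for a gene whose reads are divided among near-identical copies a listed 0 can also be a failed estimate.

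Gm6311 moved the other way, with estimated counts of 7.17, 2.88, 2.93 and 4.61 in HP1α WT and 16.3, 25.9, 21.0 and 22.3 in HP1α KO. In CPM the means were 0.141 ± 0.0627 and 0.607 ± 0.178 (SD, n = 4), and the log2 fold change was 2.08 (SE 0.400). Its highest WT sample (0.221 CPM) stayed below its lowest KO sample (0.404 CPM).

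Gm49378 was estimated at 71.8, 38.2, 54.1 and 108 counts in HP1α WT, at 0 in 3 HP1α KO samples and at 15.2 counts in HP1α KO replicate 4. The mean of the KO group was 0.097 CPM against 2.16 CPM in WT, a ratio of 0.0449. The fitted log2 fold change was -4.35 (SE 0.933), and without HP1α KO replicate 4 it was -9.18, a value set by the prior count because the other KO samples were all at 0.

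**Figure D2:**
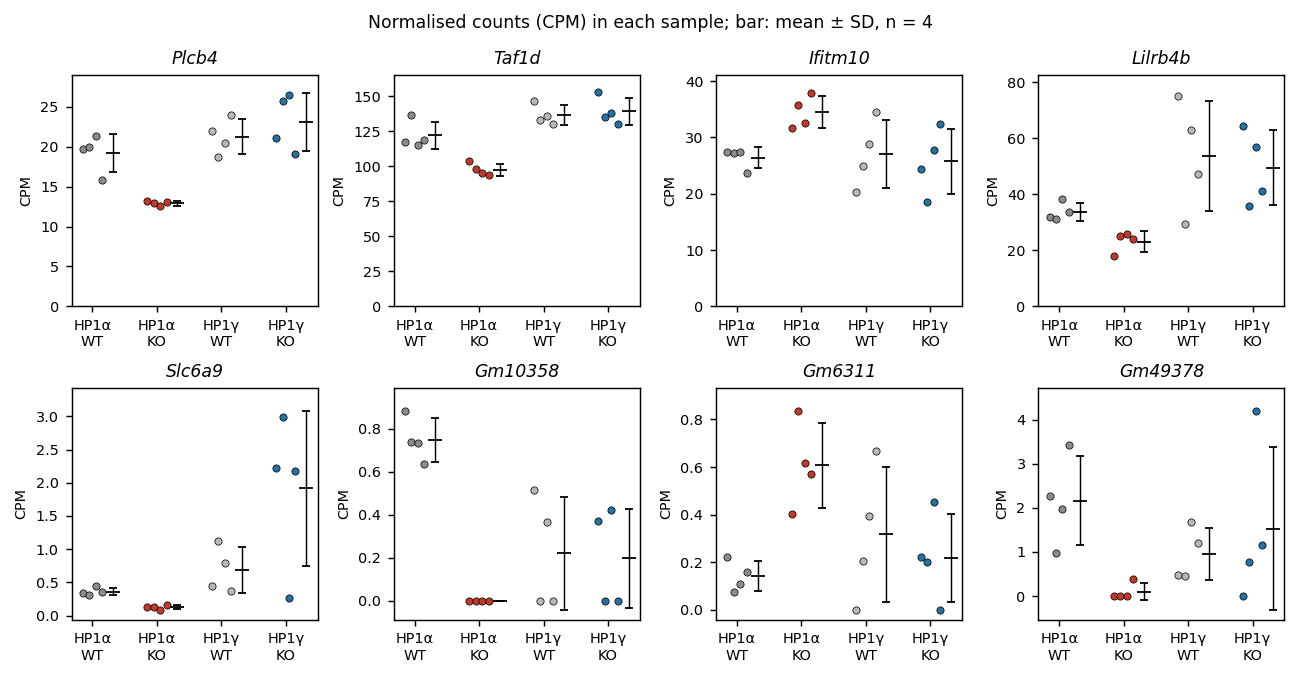
Each panel plots 1 gene, with CPM on the vertical axis (linear, from 0 or just below) and the 4 groups on the horizontal axis; points are samples and the bar beside them is the mean ± SD (n = 4). HP1α KO points lie apart from HP1α WT points in every panel, while HP1γ KO and HP1γ WT points overlap in every panel.

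The HP1γ line holds samples outside the comparison that ranked the genes and asks whether loss of the other isoform moved the same genes. Since earlier results of these data were known when the genes were named, it is not a fully independent check. Of the 8 genes, 7 passed the filter on low counts and 0 of them passed an adjusted p under 0.05 with an absolute log2 fold change above 1 (edgeR's quasi-likelihood test, 4 against 4 samples), where 0.234% of the 14975 genes tested did (35 genes). For Plcb4, Taf1d, Ifitm10 and Lilrb4b a change of the size seen in the HP1α line lies under this fold limit and could not be called. None passed the adjusted p alone either, which 0.327% of genes did. At an unadjusted p under 0.05 there was 1 member, Slc6a9, against 11.9% of all genes, and DESeq2 called 0 of the 8 as well. KO and WT samples overlapped for all 8 genes, while 4.65% of all genes tested were lower and 2.94% higher in KO without overlap, 7.59% in all. The median absolute log2 fold change of the 7 genes was 0.14, beside 0.13 over all genes. For 6 of the 8 genes, 2 of the 4 HP1γ KO samples lay below the WT mean and 2 above it.

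Plcb4 read 21.9, 18.7, 20.4 and 24.0 CPM in HP1γ WT and 21.1, 25.7, 26.5 and 19.1 CPM in HP1γ KO. KO over WT gave a log2 fold change of 0.14, with a 95% interval from -0.13 to 0.41 (adjusted p = 0.679 by edgeR).

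Taf1d was the most precisely measured of the 8 genes in the HP1γ line, with 147, 133, 136 and 130 CPM in WT and 153, 135, 138 and 130 CPM in KO. Its log2 fold change was 0.05 (95% interval -0.11 to 0.21, adjusted p = 0.813 by edgeR).

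Ifitm10 varied more within the HP1γ groups than in the HP1α line, from 20.3 to 34.5 CPM in WT and from 18.5 to 32.3 CPM in KO. The genes were picked for a steady difference in the HP1α line, so the smaller spread there is no separate result. The log2 fold change was -0.05 (95% interval -0.47 to 0.36, adjusted p = 0.935 by edgeR).

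Lilrb4b spread from 29.5 to 75.2 CPM in HP1γ WT and from 35.9 to 64.4 CPM in HP1γ KO. Its log2 fold change was -0.09, with an interval from -0.70 to 0.51 (adjusted p = 0.918 by edgeR).

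Slc6a9 had the largest estimate of the 7 genes in the HP1γ line, with a sign opposite to that of the HP1α line. It read 0.451, 1.12, 0.790 and 0.363 CPM in WT and 2.23, 2.998, 0.258 and 2.18 CPM in KO, so that 3 KO samples lay above all WT samples and replicate 3 lay below them. Its log2 fold change was 1.497 (95% interval 0.16 to 2.84), with p = 0.0321 and an adjusted p of 0.385 by edgeR, and the exact permutation test over the samples gave p = 0.143. The difference did not pass the correction over all genes.

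Gm10358 was present in 4 HP1γ samples and listed at 0 in the other 4, irrespective of genotype. Estimated counts were 16.4 and 12.0 in WT replicates 1 and 3 and 10.0 and 12.5 in KO replicates 1 and 3, and 0 in replicates 2 and 4 of both genotypes. Libraries in which the gene was listed at 0 thus occurred among WT samples as well. The fitted log2 fold change of -0.15 had an interval from -2.92 to 2.63 (adjusted p = 0.9749 by edgeR).

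Gm49378 was listed at 0 in HP1γ KO replicate 1 and reached 4.20 CPM in HP1γ KO replicate 3, the highest value of the 16 samples. Between these came 0.775 and 1.15 CPM in KO and 0.483, 0.460, 1.67 and 1.21 CPM in WT. Its log2 fold change was 0.70, with an interval from -1.28 to 2.69 (adjusted p = 0.790 by edgeR).

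Gm6311 was under the filter in the HP1γ line. It was listed at 0 in WT replicate 1 and KO replicate 4, and the other samples held between 0.202 and 0.666 CPM. The exact permutation test of 4 against 4 samples (two-sided, smallest possible p 0.0286) gave p = 0.686.

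**Figure D3:**
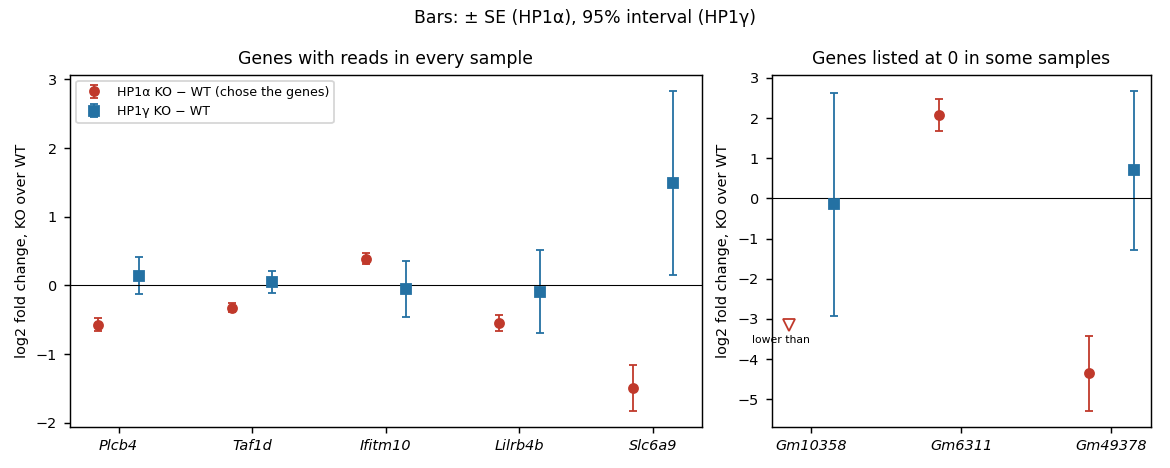
Log2 fold changes of KO over WT (vertical axis, 2 panels with their own scales) for each gene in the HP1α line (circles, ± SE) and in the HP1γ line (squares, 95% interval); the open triangle is the upper limit for Gm10358 in the HP1α line (-3.14), set by a floor of 3 counts, and Gm6311 was not fitted in the HP1γ line. All intervals of the HP1γ line include 0 except that of Slc6a9 (0.16 to 2.84).

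Set side by side, the KO effect in the HP1α line less that in the HP1γ line was -0.70 (SE 0.161) for Plcb4, -0.37 (SE 0.0959) for Taf1d, 0.44 (SE 0.218) for Ifitm10, -0.44 (SE 0.329) for Lilrb4b and -2.98 (SE 0.791) for Slc6a9 on the log2 scale. These values contain the contrast that chose the genes and were not tested.

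The red cell lineage is the first of the other cell types to be set beside Slc6a9. The 8 erythroid markers summed to 56.5 to 1713 TPM in HP1α WT, 119 to 624 TPM in HP1α KO, 143 to 1834 TPM in HP1γ WT and 278 to 4245 TPM in HP1γ KO, and none of the 8 was at 0 throughout a group. Without the 4 globin genes, the other 4 markers (Alas2, Klf1, Epor and Slc4a1) summed to 47.9, 55.0, 3.21 and 39.0 TPM in HP1γ KO replicates 1 to 4 and to 1.54, 20.1, 18.8 and 5.87 TPM in HP1γ WT. The 5 samples with the most Slc6a9 were the 5 with the highest sums, in the same order, and HP1γ KO replicate 3 was lowest of its group in both. Erythroid markers thus moved with Slc6a9 in the HP1γ line, and their part in the result was not tested. In bulk samples, fewer cells of a type and less RNA per cell cannot be told apart.

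The same sums in the HP1α line were 0.419, 0.375, 10.5 and 1.85 TPM in WT and 0.661, 0.920, 2.73 and 2.25 TPM in KO. The groups overlapped in these sums, and their part in the difference of Slc6a9 in the HP1α line was not tested. The 2 genes whose pattern over the 16 samples was most like that of Slc6a9, among 15776 genes on log2 CPM, were Epb42, which encodes a red cell membrane protein (Pearson's r 0.951), and the amino acid transporter gene Slc38a5 (0.945), given as a description over libraries that differ in these sums.

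**Figure D4:**
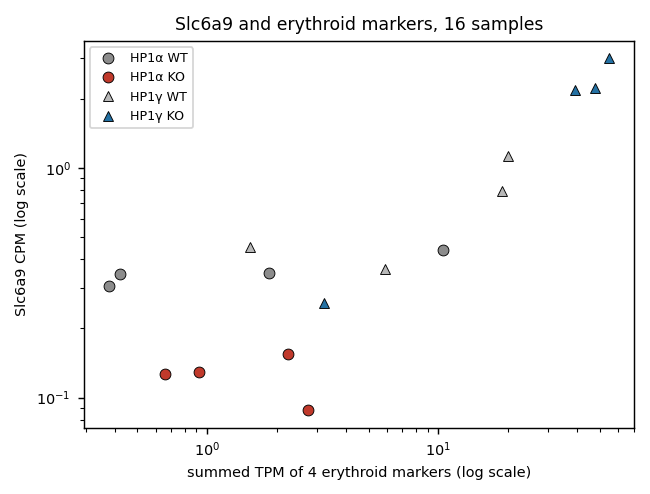
Slc6a9 in CPM (vertical axis, log scale) against the summed TPM of 4 erythroid markers without globins (horizontal axis, log scale) in the 16 samples, by group. The 5 samples at the upper right, 3 of HP1γ KO and 2 of HP1γ WT, are highest on both axes, and the 4 HP1α KO samples lie lowest on the vertical axis (0.0883 to 0.155 CPM) at sums of 0.661 to 2.73 TPM.

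Other genes of glycine handling and of the SLC6 family were set beside Slc6a9. Of the 10 other genes of the list of glycine and SLC6 transport tested in the HP1γ line, 0 were called (background 0.234%), 4 had a negative log2 fold change, and their median was 0.03. The highest was the creatine transporter gene Slc6a8 (0.54, SE 0.152, adjusted p = 0.237 by edgeR), and Shmt2, which makes glycine from serine, stood at -0.15. The median over 10 genes in the HP1α line was 0.03, and Slc6a8 was at 0.10.

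Genes that share sequence with a member were compared next. Gapdh itself, a glycolytic enzyme gene, was 1104 ± 61.8 CPM in HP1α WT and 1063 ± 21.9 CPM in HP1α KO (SD, n = 4), with log2 fold changes of -0.06 (SE 0.0524) in the HP1α line and -0.15 (SE 0.0722, adjusted p = 0.451 by edgeR) in the HP1γ line. Gm10358 made up 0.0677% ± 0.00971 of the sum of both in HP1α WT, and its mean of 0.747 CPM was smaller than the SD of Gapdh. In the HP1γ line the share was 0.0186% ± 0.0215 in WT and 0.0192% ± 0.0222 in KO (exact permutation p = 0.8286). The other 7 glycolytic genes tested had log2 fold changes within -0.15 to 0.10 in the HP1α line. All 8 glycolytic genes were negative in the HP1γ line (median -0.15, range -0.32 to -0.07), and 0 of them were called.

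Rps2 held 1276 ± 81.8 CPM in HP1α WT and 1301 ± 84.3 CPM in HP1α KO, a difference smaller than the spread. For the HP1γ line it was 1279 ± 102 CPM in WT and 1095 ± 69.7 CPM in KO (log2 fold change -0.20, SE 0.0747, adjusted p = 0.362 by edgeR). Gm6311 took up 0.0110% ± 0.00457 of their sum in HP1α WT and 0.0466% ± 0.0132 in HP1α KO, and 0.0258% ± 0.0234 and 0.0199% ± 0.0169 in HP1γ WT and KO (exact permutation p = 0.771). Its closest gene by pattern over the 16 samples was Lef1 (r 0.886), a transcription factor of naive T cells. The 6 naive T cell markers, of which Lef1 is one, summed to 1263 to 1382 TPM in HP1α WT and 1357 to 1508 TPM in HP1α KO, and to 1275 to 1365 and 1370 to 1417 TPM in HP1γ WT and KO. Most of the sum came from Tcf7 (means of 936 and 1006 TPM in HP1γ WT and KO). Ccr7 (237 and 218 TPM) and Dapl1 (25.5 and 21.3 TPM) were lower in HP1γ KO, and the other markers were higher. The part of naive cells in the difference of Gm6311 was not tested.

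At the read-through locus, Ipo4, an importin gene, and Tm9sf1, a gene of the TM9 membrane protein superfamily, had log2 fold changes of 0.19 (SE 0.0853) and 0.02 (SE 0.0596) in the HP1α line. The sum of the 3 genes was 89.4 ± 3.12 CPM in HP1α WT and 93.1 ± 4.48 CPM in HP1α KO. Within this sum the share of Gm49378 was 2.40% ± 1.07 in WT and 0.102% ± 0.205 in KO, while the sums overlapped (85.2 to 92.6 and 86.5 to 96.6 CPM). In the HP1γ line the share was 1.13% ± 0.671 in WT and 1.81% ± 2.08 in KO (exact permutation p = 0.743).

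Lilrb4a, which codes for a receptor with inhibitory motifs, was the gene most like Lilrb4b over the 16 samples (r 0.871). It read 19.8 ± 3.37 CPM in HP1α WT and 16.7 ± 1.28 CPM in HP1α KO, and its log2 fold change was -0.25 (SE 0.118). The sum of both genes was 48.5 to 56.1 CPM in HP1α WT and 33.1 to 42.8 CPM in HP1α KO, without overlap, and the share of Lilrb4b was 63.0% ± 5.205 and 57.9% ± 3.07. This sum is made up for the most part of Lilrb4b, which was chosen for the difference, so its separation is no separate result. Lilrb4a alone overlapped between the groups (16.6 to 24.2 CPM in WT and 15.2 to 17.8 CPM in KO). The shares also overlapped (56.2% to 68.1% and 54.0% to 61.5%). The read-through gene Gm49339 was at 4.07 to 5.75 CPM in HP1α WT and at 0.455, 2.67, 5.29 and 3.802 CPM in HP1α KO. In the HP1γ line Lilrb4a was 0.31 higher in KO (SE 0.187, adjusted p = 0.531 by edgeR), the sum was 78.6 ± 24.7 and 80.0 ± 20.3 CPM in WT and KO (exact permutation p = 1.0), and the share of Lilrb4b was 67.3% ± 4.45 and 61.7% ± 1.07 (exact permutation p = 0.0857).

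**Figure D5:**
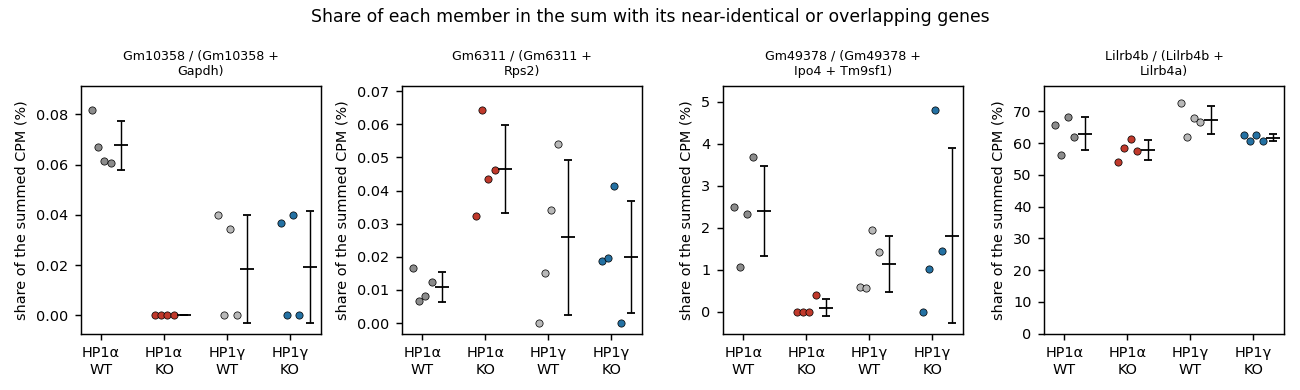
Share in percent (vertical axis) of Gm10358, Gm6311, Gm49378 and Lilrb4b in the summed CPM of the gene and the near-identical or overlapping genes named above each panel, by group (horizontal axis); points are samples and bars are mean ± SD (n = 4). In the HP1α line Gm10358 goes from 0.0606% to 0.0816% in WT to 0 in KO, while the share of Lilrb4b overlaps between the groups.

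Receptors related to Lilrb4b and their signalling partners were examined as a list of leukocyte immunoglobulin-like receptors. Of the 9 other genes tested in the HP1γ line, 0 were called (background 0.234%), with a median log2 fold change of 0.03, and the largest was the inhibitory Fc receptor gene Fcgr2b (1.36, SE 0.421, adjusted p = 0.294 by edgeR). Among them, 2 of 10 were negative in the HP1α line, and Pirb stood at 0.58 (SE 0.405). The 10 monocyte and macrophage markers, cells that also express these receptors, summed to 189 to 328 TPM in HP1α WT and 227 to 359 TPM in HP1α KO. The groups overlapped, with medians of 227 and 288 TPM. Most of the sum came from Ly6c2 (means of 169 and 205 TPM in HP1α WT and KO), while Csf1r was at 4.81 and 5.80 TPM. Itgam (1.45 and 1.23 TPM) was lower in HP1α KO, and the other markers were higher. The sum is therefore no measure of the number of these cells. The part of monocytes and macrophages in the difference of Lilrb4b was not tested.

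Among phospholipase C and Gq signalling genes, 0 of the 10 others tested were called in the HP1γ line, and their median log2 fold change was 0.09 (range -0.08 to 0.84). In the HP1α line the 9 others ranged from -0.26 to 0.29. Plcb2 and Plcb3, the other phospholipase C beta genes tested, stood at 0.11 (SE 0.0794) and 0.01 (SE 0.0790), beside -0.57 for Plcb4. The genes with the pattern most like that of Plcb4 were Prss41 (r 0.885) and Rgs8 (0.871), the second a regulator of G protein signalling.

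For RNA polymerase I transcription, 0 of the 19 other genes tested were called in the HP1γ line (median log2 fold change -0.05). Taf1a, Taf1b and Taf1c, which encode the partners of Taf1d in the selectivity factor, had log2 fold changes of -0.10 (SE 0.134), 0.02 (SE 0.0923) and 0.14 (SE 0.098) in the HP1α line, and all 19 lay within -0.17 to 0.16. The zinc finger genes Zfp51 (r 0.951) and Zfp292 (0.944) were closest to Taf1d over the 16 samples. These correlations pool the 2 lines, between which Taf1d itself differed (log2 difference -0.35, HP1α line less HP1γ line). For Taf1d and the other members, a difference shared between the lines can give a high r, so the closest genes are a description only.

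In the interferon-induced transmembrane family, Ifitm1, Ifitm2, Ifitm3 and Ifitm6 had log2 fold changes of 0.49 (SE 0.483), -0.19 (SE 0.369), 0.37 (SE 0.332) and 0.80 (SE 0.844) in the HP1α line, all smaller than 2 SE. None was called in the HP1γ line, where Ifitm3 was at -1.003 (SE 0.371, adjusted p = 0.362 by edgeR) and Ifitm1 at -1.29 (SE 0.662, adjusted p = 0.473). Smpd5 (r 0.860) and Ncf4 (0.854) had the pattern most like that of Ifitm10. For Gm49378 the closest gene was H2bc9 (r 0.836) and for Gm10358 it was Gm38300 (0.725).

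Neighbouring genes were looked at for all members. The nearest tested gene on each side within 500 kb was taken, which gave 14 neighbours for 7 genes and none for Plcb4. None of these was called in the HP1γ line. Their log2 fold changes in the HP1α line, where 4 of the 14 are the genes of the read-through loci described above, ran from -0.66 (SE 0.508) for Gm49339, which overlaps Lilrb4b, to 0.36 (SE 0.441) for Gm49369, which overlaps Ifitm10. On the other side of Ifitm10 was Dusp8 at 230 kb (0.21, SE 0.350). Beside Gm10358 were Mcm5 (-0.17) and Gm7901 (-0.27), beside Gm6311 were Glrx (-0.05) and Rfesd (0.01), and beside Slc6a9 were Gm12844 (-0.04) and Atp6v0b (0.09). Taf1d overlapped 4931406C07Rik (0.01) and Cep295 (-0.10).

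The 2 lines were finally compared as wholes, by the mean of KO and WT in the HP1α line less that in the HP1γ line, to place the level of each gene. The HP1α samples whose separation and small spread chose the genes enter this mean and its error, so the differences are a description and no p is given for them. On the log2 scale they were -2.43 for Slc6a9, -0.90 for Lilrb4b, -0.51 for Plcb4 and -0.35 for Taf1d, and -1.98 for Gm10358, -1.36 for Gm49378, 0.17 for Ifitm10 and 0.14 for Gm6311. By the call rule 1 of the 8 genes, Slc6a9, was counted, where 4.06% of 15776 genes were called and 3.5% were lower in the HP1α line. By adjusted p alone the first 4 genes were counted, as were 41.8% of all genes and, for lower levels in the HP1α line, 20.8%. Both counts rest in part on the samples that chose the genes, so nothing is read from them about the members. The lines differ in alleles, Cre transgene and litters, which cannot be told apart. In the WT samples alone the CPM ranges of these 4 genes overlapped between the lines, as with 0.305 to 0.440 CPM in HP1α WT and 0.363 to 1.12 CPM in HP1γ WT for Slc6a9. On this scale Gm10358 was the member whose WT ranges did not overlap, with 0.634 to 0.882 CPM in HP1α WT and 0 to 0.516 CPM in HP1γ WT. In TPM the WT ranges of Taf1d were also apart, with 121.5 to 132.8 in HP1α WT and 143.8 to 175.3 in HP1γ WT. The share of all genes apart in this way was not counted, so nothing particular to Gm10358 or Taf1d is read from these ranges.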

How the data were processed

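The titles given by the submitters set the line, genotype and replicate of each of the 16 RNA-Seq samples. Their treatment label describes a cell transfer, which the study does not describe for memory cells, and it was left aside. Trimming was done by the authors with Trim Galore and alignment with STAR (GRCm39), and they deposited the estimated counts of Salmon without normalization (11.6% of values are not whole). The authors also deposited TPM, which keep no depth.

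Rounded counts were tested by edgeR 4.0.16 under R 4.3.3, with the quasi-likelihood test after TMM normalization and a filterByExpr minimum of 10 counts, and p was adjusted over all genes (Benjamini-Hochberg), each KO against its WT littermates. Genes were called at a log2 fold change beyond 1 in either direction with adjusted p under 0.05, the limits of the study. The standard error is the log2 fold change divided by the root of the F statistic. Values per sample are CPM after TMM normalization over 16 samples. A floor of 3 counts is 7.46e-06% to 1.12e-05% of a library. Shared sequence was found with blastn 2.17.0 (150 bases, 98% identity) in GENCODE transcripts of GRCm39, where 56017 of 56748 identifiers were found. Pairs were aligned with Biopython 1.88.

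A gene of the erythroid marker list is not reported here and was left out of its sums. The genes and the lists were chosen with earlier results of these data known. Genes named are the 8 members, genes of the lists, neighbours within 500 kb, the 2 closest genes by Pearson correlation, genes sharing sequence, Cbx5 and Cbx3. Genes between the members in the ranking of the HP1α line were named after their values were seen. In simulated counts with 200 of 14975 genes changed by a log2 of 2, the test of the HP1γ line recovered 88% and 2.22% of its calls were unchanged genes. Smaller changes were not simulated, such as those of Plcb4 (-0.57), Taf1d (-0.32), Ifitm10 (0.38) and Lilrb4b (-0.54) in the HP1α line. Alternatives were DESeq2 1.42.0, RLE size factors, other filters, all 16 samples in one fit, a replicate block, limma 3.58.1 on log2(TPM + 1) and log2(TPM + 0.1), adjusted p alone and omission of each sample. DESeq2 with a replicate block was added after seeing the data.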

Additional observations from a re-analysis of the deposited data

Results flagged for a closer look

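Of 31 sets of 4 samples (8 genes in 4 groups, without Gm10358 in HP1α KO, which is 0 throughout), 3 held a sample far from the other 3 by Dixon's test of its gap to the nearest sample over the range of the group. Chance gives this in about 1 of 20 sets, or 1.55 of 31. Taf1d reached 136 CPM in HP1α WT replicate 2, on the side away from HP1α KO. Ifitm10 was at 23.6 CPM in HP1α WT replicate 4, also away from HP1α KO. Gm49378 was at 0.388 CPM in HP1α KO replicate 4, where the other 3 samples were at 0, which gives the largest possible ratio of 1 at any value.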

How the results depend on the processing

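In the HP1γ line 0 members were called under all 10 alternatives and with each sample left out, while the count over all genes, 35, was 97 with DESeq2, 18 with at least 10 counts in every sample, 18 with limma on log2(TPM + 1), and 23 to 32 with a sample left out. Counts of the line comparison are a description only, as stated above. There 1 member was called, but 0 with at least 10 counts in every sample, which removes Slc6a9. The count was 0 with limma on log2(TPM + 1) and 4 with adjusted p alone. Leaving out a sample gave 1 to 2, Gm49378 (-3.76) being added without HP1α KO replicate 4. Over all genes 641 were called there, and 303 and 170 under the same filter and limma setting. The median absolute difference of the KO effects was 1.66 (log2), 0.44 with at least 10 counts in every sample (4 members) and 0.82 with limma on log2(TPM + 1). In the HP1α line 8 members did not overlap, 6 in TPM and 8 to 8 with a sample left out, and on log2(TPM + 1) and at a pseudocount of 0.1 Plcb4 was -0.33 and -0.36, Gm49378 -0.94 and -3.02 and Gm10358 -1.03 and -3.51, while on log2(TPM + 1) Slc6a9 was -0.29 and Gm6311 0.81. For the HP1γ line, Plcb4 was 0.36 and 0.38 and Slc6a9 0.71 and 1.39 on these scales, without a call. Directions turned, never with a call, for 5 genes of the HP1γ line and 2 of the line comparison. In the HP1γ line, with a sample left out, Gm10358 ran from -0.89 to 0.70, Taf1d from -0.0031 to 0.0875, Ifitm10 from -0.18 to 0.0753, Lilrb4b from -0.30 to 0.11 and Gm49378 from -0.52 to 1.12. Between the lines Gm10358, at -1.98 in the edgeR fit, was 0.18 with limma on log2(TPM + 1) and 0.36 at a pseudocount of 0.1, and Gm6311 ran from -0.0805 to 0.49 with a sample left out. The causes were not tested.

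Samples of the same number in KO and WT correlated at 0.00311 to 0.229 in their deviations, all positive but not all above 0.1. Not every sample was closest to its own number. What samples of a number share is not given by the labels. With the number as a replicate block 38 genes were called in the HP1γ line, 0 of them members, and 1 member between the lines. In the HP1γ line the block lowered the SE from 0.272 to 0.0905 for Lilrb4b, 1.249 to 0.576 for Gm10358 and 0.186 to 0.105 for Ifitm10. It was also lower for Taf1d and Gm49378, and higher for Plcb4 and Slc6a9. Intervals and tests given above are without the block and do not take a shared structure into account. For Gm49378 in the HP1γ line, a setting chosen once the data had been seen, DESeq2 and the replicate block together, gave -0.0907.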
